A study of Mus musculus with 15 samples.

Results

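The 45 genes described here form the cell cycle and mitosis set of the pituitary: 33 genes of S phase exit, mitosis and cytokinesis, 9 of DNA replication and nucleotide supply, and 3 regulators of the step from G1 to S phase. They were chosen by name, for their known roles, and each was found as exactly 1 of the 55523 rows of the count table. Whole pituitary glands were sequenced from mice in which the pituitary enhancer (PE) of Nr5a1 had been removed by CRISPR/Cas9 from its sixth intron. Nr5a1 encodes the nuclear receptor NR5A1 (Ad4BP/SF-1), which the pituitary makes in its gonadotropes, the cells that secrete luteinizing and follicle-stimulating hormone. There were 4 libraries of PE+/− males, 4 of PE−/− males, 4 of PE+/− females and 3 of PE−/− females. The PE+/− controls lacked the enhancer on 1 allele, so every mouse carried the deletion, and no group with both enhancers intact is analysed here. The age of the sequenced mice, the number of founder animals and whether each library came from a separate animal are not given in the sources used here, so p-values measure the spread between these libraries. The comparison of the genotypes asks which pituitary transcripts differ when NR5A1 is lost from the gland. Since the mice lacked the enhancer throughout the body and throughout life, effects that arise within gonadotropes and effects that reach the gland from other organs cannot be told apart.

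A dividing cell first licenses and copies its DNA, for which E2F factors switch on the helicase, clamp and nucleotide genes, and later switches on the genes of mitosis, through the MuvB complex with B-Myb and FOXM1. Mitotic genes are read mainly in G2 and M phase, so that in a tissue with few dividing cells their RNA is scarce, while replication genes keep a low level outside S phase as well. In the adult pituitary few cells divide at any time, and divisions occur among hormone cells, stem cells and the cells of vessels and blood. In bulk RNA, a change in the number of dividing cells cannot be told apart from a change in the RNA per cell.

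Promoters of mitosis genes often carry CHR and CCAAT letters and those of replication genes E2F letters, and 5 stretches are printed to show where these stand in the members. RefSeq promoters on GRCm38.p6, from 250 bases before to 50 bases after the start of the gene, were found for 38 of the 45 members. In the lines that follow, each stretch is the 150 bases before the start, read 5′ to 3′ on the strand of the gene. Capitals mark TTTGAA (the core of the cell cycle homology region, CHR), CCAAT, and TTCCCGC or TTGGCGC (E2F), on either strand, and since ATTGG and TTGGCGC share letters the matches can overlap. Mki67, Ccnb2 and Top2a stand for the mitosis members, and Mcm5 and Mcm6 for the replication members.
Mki67 (chr7:135716380-135716529, minus strand): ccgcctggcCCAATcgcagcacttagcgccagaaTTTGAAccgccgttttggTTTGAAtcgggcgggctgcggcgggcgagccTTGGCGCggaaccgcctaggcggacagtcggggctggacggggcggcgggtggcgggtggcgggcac
Ccnb2 (chr9:70421555-70421704, minus strand): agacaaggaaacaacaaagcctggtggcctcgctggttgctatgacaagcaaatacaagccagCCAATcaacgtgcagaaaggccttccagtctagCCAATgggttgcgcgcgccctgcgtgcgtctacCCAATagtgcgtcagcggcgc
Top2a (chr11:99024190-99024339, minus strand): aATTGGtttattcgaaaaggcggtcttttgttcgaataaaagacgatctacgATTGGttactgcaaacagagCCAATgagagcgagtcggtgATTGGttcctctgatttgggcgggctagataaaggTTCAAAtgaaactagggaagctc
Mcm5 (chr8:75109359-75109508, plus strand): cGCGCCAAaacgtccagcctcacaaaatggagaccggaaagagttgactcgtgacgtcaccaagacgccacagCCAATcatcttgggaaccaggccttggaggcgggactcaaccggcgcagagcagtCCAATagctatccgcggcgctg
Mcm6 (chr1:128359706-128359855, minus strand): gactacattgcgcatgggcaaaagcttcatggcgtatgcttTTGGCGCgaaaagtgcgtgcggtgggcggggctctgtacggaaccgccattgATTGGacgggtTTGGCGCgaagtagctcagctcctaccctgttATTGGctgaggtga

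Over the whole 300-base windows the CHR letters were present in 20 of 28 mitosis members (71.4%), in 1 of 10 replication and G1/S members (10%) and in 20.2% of the 27025 genes with a promoter. Ccnb2 holds them on both sides of the stretch printed above. CCAAT was in 78.6% of the mitosis members, 70% of the replication and G1/S members and 41.1% of all genes. CHR and CCAAT together were in 67.9% of the mitosis members, 10% of the other members and 7.97% of all genes. The E2F letters were in 10.7% of the mitosis members, 40% of the replication and G1/S members and 7.79% of all genes. A match describes the letters and not a site in use.

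Library totals ran from 12982794 to 30238443 estimated counts, of which the 45 members took 0.0272% to 0.0420%. It was assumed, and not estimated, that about 4 counts stood for 1 fragment. In genes with 1 transcript, counts of 5 and 9 were more frequent than their neighbours (ratios of 1.41 and 1.16). On that assumption 12 counts (3 fragments) were taken as the floor of detection. This floor lay between 0.371 and 0.937 CPM (counts scaled to the depth of the library) over the libraries. These floors cover counting error only. The hormone genes of the anterior and intermediate lobes were abundant in every library, with Gh at 59300 to 187000 CPM, Prl at 4450 to 41200, Pomc at 4640 to 115000 and Cga at 1340 to 12900 CPM. Nr5a1 was at 33.7 CPM or more in each PE+/− library and at 0.896 CPM or less in each PE−/− library. No pair of replicates was alike within sampling noise.

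Per kilobase of annotated exon, the replication genes had the highest median of the 9 roles. Pcna, the sliding clamp of the DNA polymerases, led with a mean of 20.1 CPM per kb over the 15 libraries. The replication members had a median of 2.40 CPM per kb, against 0.382 for Mki67, 0.232 for Cdk1 and 0.127 for Top2a. Racgap1, a regulator of the cytokinetic furrow, was second of all members at 10.3 CPM per kb and far above the next spindle gene, Nusap1 (0.844). Ccne2 (6.40) stood well above Ccne1 (0.154), the other E-type cyclin. At the low end, Bub1, a spindle checkpoint kinase, had no count in 14 of 15 libraries, and Ttk, another checkpoint kinase, none in 13. Neither passed 12 counts in any library, so neither was detectable at this depth. Cenpe, a kinetochore motor, and Kif23, a motor of the central spindle, were listed at 0 in 4 libraries each and reached at most 14 and 20 counts.

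**Figure D1:**
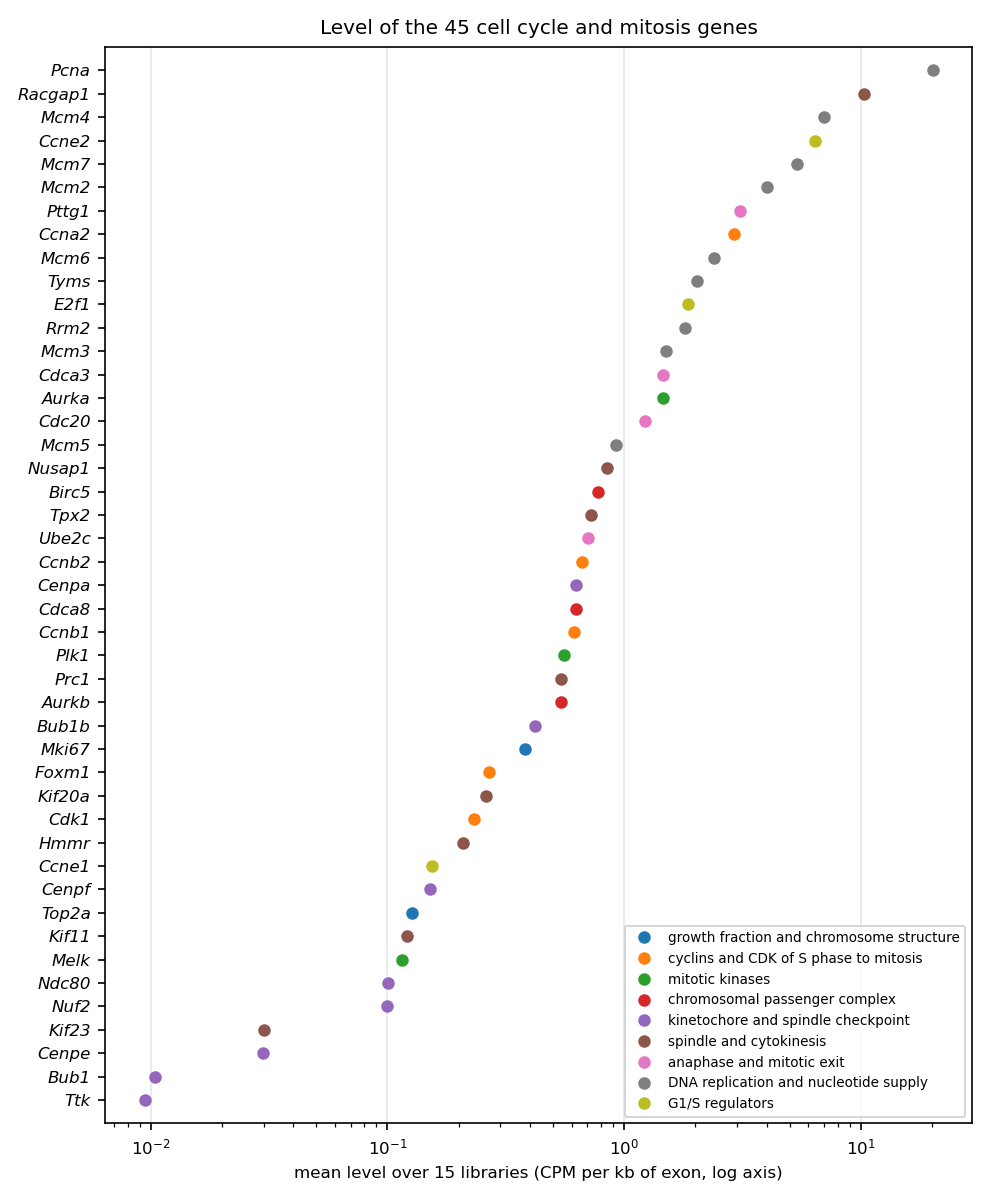
Mean level of each of the 45 members over the 15 libraries, in CPM per kb of exon on a log axis, coloured by role. Replication genes and Racgap1 lie to the right, with Pcna at 20.1, and the kinetochore and checkpoint genes Bub1 and Ttk lie lowest.

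A few libraries held much of the variation among the mitosis genes. Summed over the mitosis members without Racgap1, the level was 51.4, 77.1, 45.8 and 61.4 CPM in replicates 1 to 4 of the PE+/− males and 62.7, 54.1, 62.4 and 110 CPM in those of the PE−/− males. It was 133, 90.4, 75.5 and 70.2 CPM in the PE+/− females and 96.0, 70.1 and 58.7 CPM in the PE−/− females. PE+/− female replicate 1, the shallowest library, was the highest of all 15 for 17 of the 45 members, 15 of them mitosis genes. PE−/− male replicate 4 was the highest for 10 members. How often either library was the highest over all genes was not counted. The 4 groups overlapped in this sum. Group means were 58.9 ± 13.7, 72.2 ± 25.3 and 92.2 ± 28.2 CPM in PE+/− males, PE−/− males and PE+/− females (SD, n = 4 each) and 74.9 ± 19.1 CPM in PE−/− females (SD, n = 3). The summed replication genes ran from 131 to 195 CPM over all libraries, with group means between 154 and 173 CPM.

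**Figure D2:**
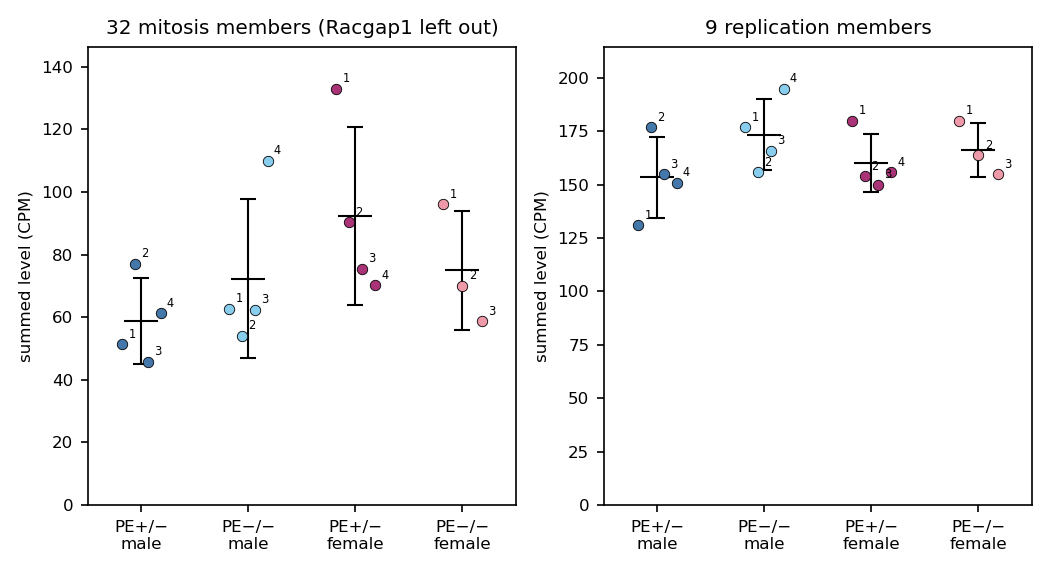
Summed level in CPM of the mitosis members without Racgap1 (left) and of the 9 replication members (right), with 1 point per library numbered by replicate, and the mean and SD of each group as bars. PE+/− female 1 (133 CPM), PE−/− male 4 (110 CPM) and PE−/− female 1 (96.0 CPM) lie highest in their groups on the left, while the right panel spans 131 to 195 CPM.

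The same libraries also stood at the edge for some cell type markers. The summed immune markers were at 339 CPM in PE+/− female 1, against 165 to 310 CPM in the other 14 libraries. PE−/− male 4 had the lowest gonadotrope sum (1360 CPM, against 2260 to 16900 in the others) and the highest lactotrope sum (42200 CPM, against 5310 to 36300). In PE−/− female 1 the gonadotrope sum was 2260 CPM and the somatotrope sum 176000 CPM, against 5960 and 6940 and 87500 and 106000 CPM in the other PE−/− females. In every library most of the gonadotrope, lactotrope and somatotrope sums came from Cga, Prl and Gh. Here and below, each of these sums therefore mainly follows a single hormone gene. Cga was at 1340 CPM in PE−/− male 4 and at 2210 CPM in PE−/− female 1. It is also a thyrotrope marker, and the thyrotrope sums there were 1510 and 2680 CPM. None of the 11 marker lists held a gene at or under the floor in every library. The part of these differences in the levels of the mitosis genes was not tested.

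**Figure D3:**
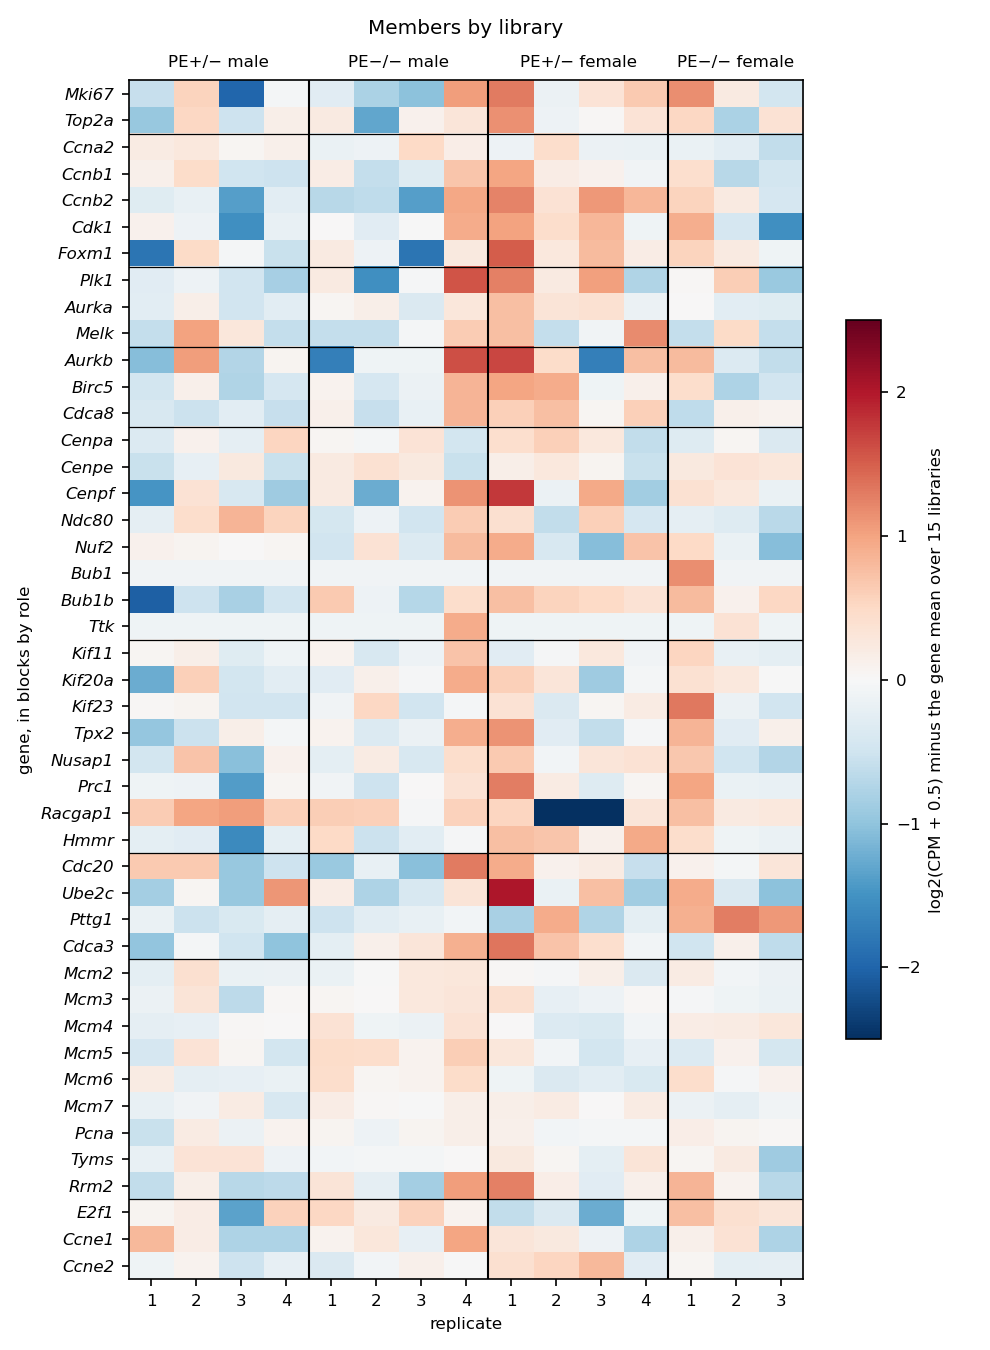
Each member (rows, in blocks by role) in each of the 15 libraries (columns), as log2(CPM + 0.5) minus the mean of the gene over the libraries. Counted on CPM and not on the plotted log values, PE+/− female 1, PE−/− male 4 and PE−/− female 1 have most members above their mean (37, 36 and 32 of 45). The shares over all genes were not counted. Racgap1 is low in PE+/− females 2 and 3 alone.

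Loss of the second enhancer in males was accompanied by no member past an adjusted p of 0.05. Of the 45 members, 38 passed the filter on low counts and were tested, and edgeR's quasi-likelihood test called 0 of them, against 23 of all 17392 genes tested (0.132%). At an unadjusted p under 0.05 there was 1 member, Cdca3, higher in PE−/− males, against 6.14% of all genes (3.34% higher and 2.79% lower). DESeq2 and edgeR's likelihood ratio test also called 0 members, against 206 and 138 over all genes. A log2 fold change above 0 was found for 31 of the 38 members and for 50.4% of all genes. The median of the members was 0.25, from −0.81 to 1.44, and that of all genes 0.00. Without PE−/− male 4 the median was 0.08. No member separated the groups without overlap, which 2.54% of all genes did upward and 2.01% downward. In the same comparison the gonadotrope genes Nr5a1, Lhb and Gnrhr were called lower (edgeR adjusted p = 0.0117, 0.0132 and 0.00991). The summed pericyte and fibroblast markers, all 6 with a value below 0, were at 415 to 572 CPM in PE−/− males against 673 to 790 CPM in PE+/− males, and the somatotrope sum at 66500 to 131000 against 135000 to 189000 CPM. Their part in the values of the members was not tested.

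In females the mitosis members lay mostly below 0 and E2f1 and Pttg1 above it, again without a call. edgeR's quasi-likelihood test called 0 of the 39 members tested, against 189 of 18085 genes (1.05%). The likelihood ratio test called 0 members, against 710 over all genes, and DESeq2 1 (E2f1), against 1431. Of the members, 6 had an unadjusted p under 0.05 (16.1% of all genes did, 7.75% higher and 8.39% lower): Pttg1, Mcm4, Mcm6 and E2f1 were higher and Cdca3 and Mcm7 lower in PE−/− females. The log2 fold change was above 0 for 10 of the 39 members and for 50.2% of all genes. The members had a median of −0.38 and all genes one of 0.00. For the mitosis members the median was −0.64 and for the replication members −0.14. Without PE+/− female 1 the median over the members was 0.00 and 19 of 37 members were above 0. Without PE−/− female 1 it was −0.67. Groups did not overlap for 3 members upward (Mcm4, Mcm6 and E2f1) and 1 downward (Mcm7), against 9.65% and 8.93% of all genes. Markers of several cell types moved in the same comparison. Nr5a1, Lhb and Gnrhr were again called lower (edgeR adjusted p = 2.53e-04, 0.00698 and 0.00633). Prl, the lactotrope hormone gene, was called lower in PE−/− females, with −2.58 (SE 0.21, edgeR adjusted p = 0.00698). The sum of the 5 lactotrope markers, 3 of them with a value below 0, was at 5310 to 6540 CPM against 22700 to 36300 CPM in PE+/− females. Prl itself made up most of that sum, at 4450 to 5600 CPM against 21900 to 35100 CPM. Col1a2, a collagen gene of fibroblasts, was called lower, with −1.95 (SE 0.23, edgeR adjusted p = 0.0207), and the sum of the 6 pericyte and fibroblast markers, 4 of them with a value below 0, was at 453 to 552 against 720 to 1210 CPM. All 7 erythroid markers had a value below 0 (median −0.85), with overlapping sums (401 to 808 against 585 to 1370 CPM). Of the 8 stem or folliculostellate markers 7 had a value above 0, and their sums did not overlap (192 to 245 against 149 to 181 CPM). Their part in the values of the members was not tested.

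Between the sexes in PE+/− mice, most mitosis members had a higher fitted level in females, without a call. Of 38 members tested edgeR's quasi-likelihood test called 0, against 115 of 17163 genes (0.67%). DESeq2 called 3 members (Ccnb2, Cdca8 and Cdca3), against 902 over all genes, and the likelihood ratio test 1 (Cdca8), against 422. An unadjusted p under 0.05 was found for 7 members, all higher in females (Ccnb2, Plk1, Birc5, Cdca8, Bub1b, Cdca3 and Ccne2), against 13.5% of all genes (7.29% higher and 6.18% lower). The median log2 fold change of females over males was 0.54 for the members, 0.82 for the mitosis members and 0.00 for the replication members, and −0.01 for all genes. The replication members ran from −0.19 to 0.95, with Rrm2 the largest (0.95, SE 0.41, edgeR adjusted p = 0.372). Of the members, 30 of 38 were above 0, against 48.8% of all genes. Without PE+/− female 1 the median over the members was 0.15, with 25 of 39 above 0. With counts divided by 4, to approximate fragments, 24 members were tested, with a median of 0.30 and 16 above 0. Groups did not overlap for Ccnb2, Cdca8, Bub1b and Hmmr upward and Racgap1 downward, against 5.32% and 4.44% of all genes. Of these, Ccnb2, Bub1b and Hmmr were at or under the floor of 12 counts in some PE+/− males. Col1a2 was called higher in PE+/− females, with 1.61 (SE 0.17, edgeR adjusted p = 0.00773). The summed gonadotrope markers, all 5 with a value below 0, were at 5850 to 8730 CPM in these females against 8970 to 16900 CPM in PE+/− males, and the somatotrope sum, with 3 of 4 below 0, at 60900 to 106000 against 135000 to 189000 CPM. Their part in the values of the members was not tested.

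Between the sexes in PE−/− mice, Pttg1 had the smallest p of the members, again without a call. edgeR's quasi-likelihood test called 0 of 39 members tested, against 9 of 18217 genes (0.0494%). DESeq2 and the likelihood ratio test each called Pttg1, against 41 and 33 over all genes. Besides Pttg1, higher in females, Mcm5, lower in females, had an unadjusted p under 0.05, against 3.37% of all genes (1.63% higher and 1.74% lower). The median of the members was −0.09 and 14 of 39 were above 0, against 49.7% of all genes. Without PE−/− male 4 the median was 0.11, of the opposite sign. Groups did not overlap for Pttg1 upward and Mcm3 and Mcm7 downward (2.52% and 2.72% of all genes).

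Whether the genotype acted differently in the sexes was tested by the interaction over all 15 libraries, here the change in females minus that in males. edgeR's quasi-likelihood test called 0 of 41 members tested, against 31 of 19286 genes (0.161%). DESeq2 and the likelihood ratio test each called 1 member (Cdca3), against 394 and 202 over all genes. At an unadjusted p under 0.05 there were 6 members (10.1% of all genes, 4.71% positive and 5.4% negative), with Cdca3, Cdca8, Mcm7, Aurka and Birc5 negative and Pttg1 positive. The interaction was below 0 for 36 of the 41 members and the median was −0.51, while 49.6% of all genes were above 0. Without PE+/− female 1 and PE−/− male 4, an alternative chosen after seeing the data, the median was 0.02 and 21 of 41 were above 0. The comparisons share libraries, with the PE+/− females entering both the female genotype comparison and the PE+/− sex comparison, so the members' values in them are not independent.

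**Figure D4:**
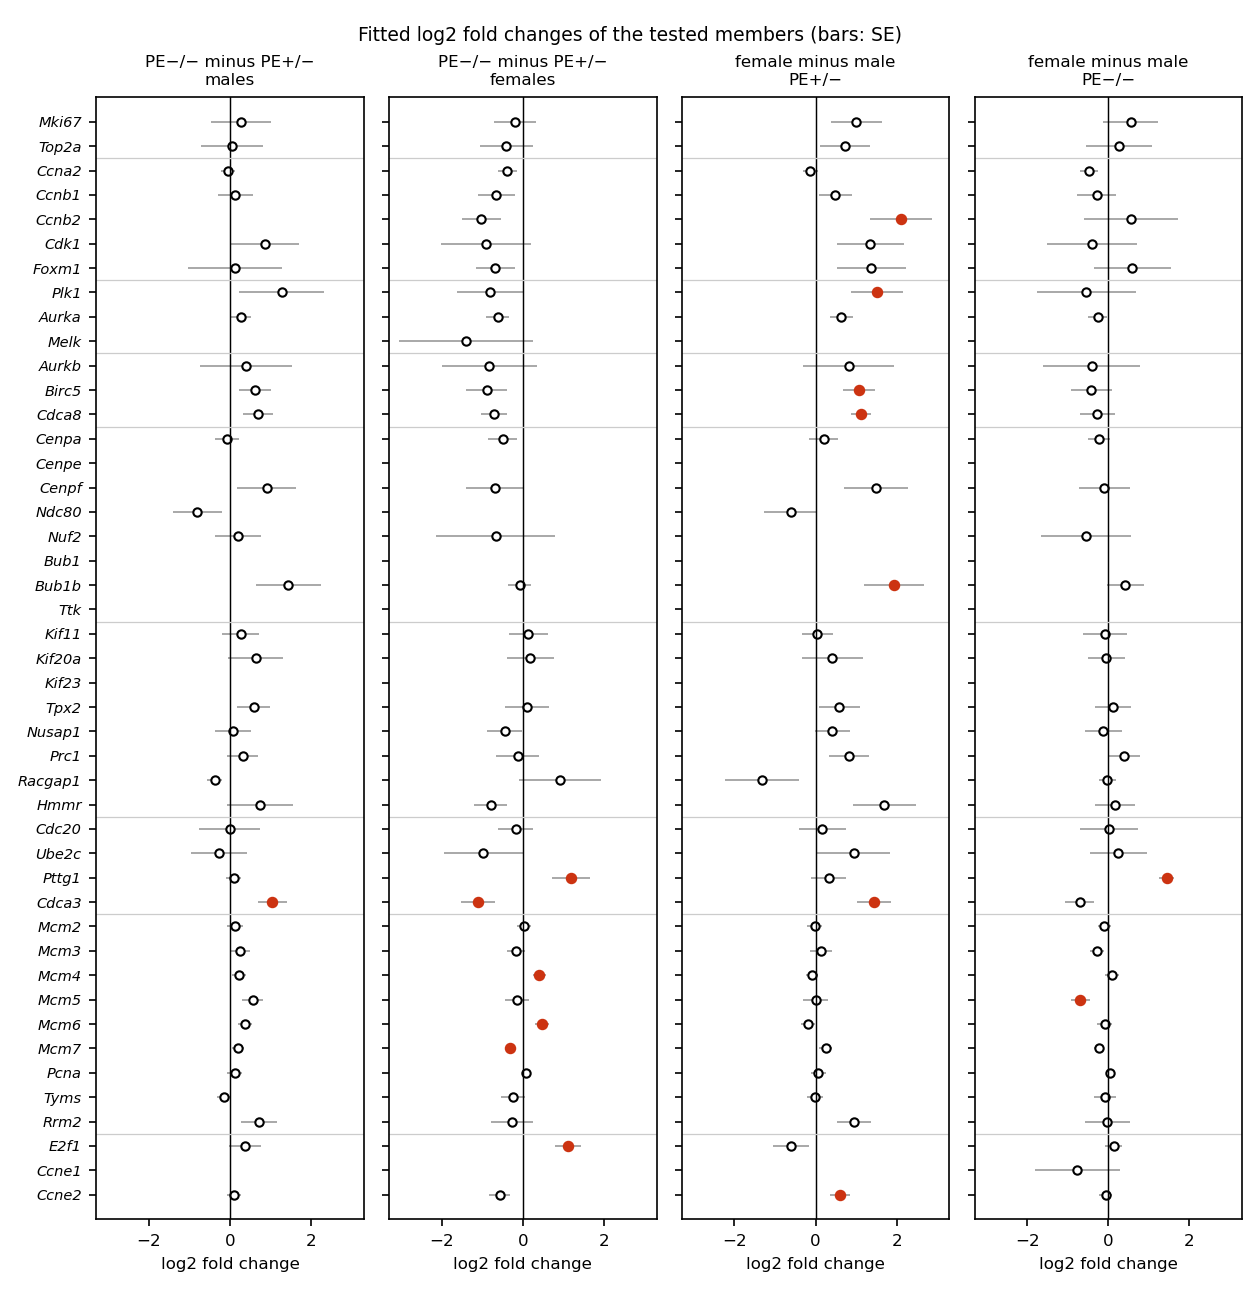
Fitted log2 fold changes of the tested members in the 4 comparisons, with SE as bars and filled red points for an unadjusted p under 0.05. In PE+/− mice most mitosis genes lie to the right, which is higher in females. In that panel the replication genes stay near 0 apart from Rrm2 (0.95, SE 0.41). In the other panels they run from −0.69 (Mcm5 between the PE−/− sexes) to 0.71 (Rrm2 with genotype in males). No member passed an adjusted p of 0.05 in any panel.

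Among the genes that mark growing cells, Mki67 encodes the Ki-67 protein that coats mitotic chromosomes, and Top2a the topoisomerase that untangles them. Mki67 (chromosome 7, 135689784 to 135716361, minus strand, mm10) was at 1.97, 4.91, 0.427 and 3.04 CPM in PE+/− males 1 to 4 and 2.53, 1.64, 1.31 and 7.11 CPM in PE−/− males. In females it was at 8.59, 2.84, 4.19 and 5.30 CPM with PE+/− and 7.78, 3.83 and 2.19 CPM with PE−/−. The groups overlapped in every comparison, and the highest library of each group was the one that also led its group in the summed mitosis genes. The genotype log2 fold change was 0.27 (SE 0.74) in males and −0.20 (SE 0.52) in females (edgeR adjusted p = 0.988 and 0.915). Without PE−/− male 4 the male value was −0.51, and without PE+/− female 1 the female value was 0.15. Top2a, at 0.115 to 2.81 CPM, had log2 fold changes of 0.05 (SE 0.77) and −0.41 (SE 0.65). Its libraries were 0.282, 1.67, 0.549 and 1.16 CPM in PE+/− males, 1.26, 0.115, 1.12 and 1.36 in PE−/− males, 2.81, 0.879, 1.03 and 1.40 in the PE+/− females, with 1.67, 0.371 and 1.44 in PE−/− females. PE+/− female 1 was again the highest, and the groups overlapped.

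The cyclins set the kinase CDK1 and its relatives in motion. Ccna2, cyclin A of S phase and G2, was by far the most abundant of them per length (2.91 CPM per kb, against 0.665 for Ccnb2 and 0.617 for Ccnb1, the B-type cyclins of mitosis). It shares 510 bp of exon with Exosc9 on the opposite strand (1.65 to 9.14 CPM), and whether the counting used strand is not known, so their reads cannot be told apart. Ccna2 was at 13.5, 14.1, 12.1 and 12.8 CPM in PE+/− males, 10.3, 10.7, 16.6 and 13.1 in PE−/− males, 10.7, 16, 10.5 and 10.3 in the PE+/− females, with 10.4, 9.67 and 7.48 in PE−/− females. The groups overlapped in all 4 comparisons, and its smallest p was that of the sexes in PE−/− (log2 fold change −0.47, SE 0.22, edgeR adjusted p = 0.997). Unlike most mitosis members it was not higher in PE+/− females, where its log2 fold change over males was −0.13 (SE 0.18).

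Ccnb2 (chromosome 9, 70407692 to 70421547) was near the floor in males. It was at 0.563, 0.649, 0 and 0.581 CPM in PE+/− males and 0.303, 0.344, 0 and 2.05 CPM in PE−/− males, and at 2.58, 1.17, 2.28 and 1.83 CPM in the PE+/− females, with 1.42, 1.02 and 0.481 CPM in PE−/− females. All PE+/− females lay above all PE+/− males. The difference of the sexes in PE+/− was 2.11 on the log2 scale (SE 0.77, edgeR adjusted p = 0.279), and over its alternatives the adjusted p ran from 0.048 (DESeq2) to 0.546. The PE+/− males had 8, 14, 0 and 9 counts, at or under 12 counts in all but replicate 2. In females the genotype value was −1.02 (SE 0.49, edgeR adjusted p = 0.363). A named pseudogene, Ccnb2-ps, could share its reads.

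Cdk1, the mitotic kinase itself, was at 1.06, 0.834, 0 and 0.775 CPM in PE+/− males and 0.960, 0.689, 0.936 and 2.27 CPM in PE−/− males. In females it was at 2.42, 1.46, 2.07 and 0.854 CPM with PE+/− and 2.22, 0.587 and 0 CPM with PE−/−. PE−/− female 3 and PE+/− male 3 had no count, and the groups overlapped in each comparison. Its genotype log2 fold change was 0.85 (SE 0.84) in males and −0.90 (SE 1.11) in females (edgeR adjusted p = 0.972 and 0.774). For Foxm1, the transcription factor of G2 and M phase, the values were 0.11 (SE 1.16) and −0.68 (SE 0.48), and for Ccnb1 0.13 (SE 0.43) and −0.65 (SE 0.46).

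Of the mitotic kinases, Aurka, the spindle pole kinase Aurora A, was at 2.89, 3.99, 2.44 and 2.91 CPM in PE+/− males, 3.69, 3.98, 2.67 and 4.49 in PE−/− males, 6.40, 4.60, 4.79 and 3.17 in the PE+/− females, with 3.58, 2.90 and 2.80 in PE−/− females. PE+/− females 1 to 3 lay above every other library, and PE+/− female 4 lay among the PE+/− males and the PE−/− females. The log2 fold change was 0.27 (SE 0.25) with genotype in males, −0.62 (SE 0.29) in females and 0.64 (SE 0.28) between the PE+/− sexes (edgeR adjusted p = 0.972, 0.345 and 0.374), and the interaction −0.89 (SE 0.36, edgeR adjusted p = 0.417). Plk1, which drives mitotic entry and exit, had 1.52 (SE 0.65) between the PE+/− sexes and a value of −0.80 (SE 0.83) with genotype in females. Melk was listed at 0 in 7 libraries and reached at most 22 counts.

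The chromosomal passenger complex, which corrects the attachment of chromosomes to the spindle, is made of the kinase Aurora B (Aurkb), survivin (Birc5), borealin (Cdca8) and a scaffold outside the set. Cdca8 (chromosome 4, 124918465 to 124939311) was at 2.18, 1.95, 2.44 and 1.87 CPM in PE+/− males, a mean of 2.11 ± 0.255 (SD, n = 4). It was at 3.34, 1.87, 2.62 and 5.86 CPM in PE−/− males, 4.84, 5.44, 3.15 and 4.82 in the PE+/− females, with 1.79, 3.37 and 3.24 in PE−/− females. Every PE+/− female lay above every PE+/− male, and the genotypes overlapped within each sex. The difference of the sexes in PE+/− was 1.12 (SE 0.25, 2.17-fold), with an edgeR adjusted p = 0.104 and a range over the alternatives from 0.00409 (DESeq2) to 0.377 (edgeR with the replicate number as a block). With genotype it was 0.69 (SE 0.36) in males and −0.70 (SE 0.32) in females, and the interaction was −1.39 (SE 0.49, edgeR adjusted p = 0.33). Cdca8 shares 232 bp of exon with 9930104L06Rik on the opposite strand, at 3.58 to 30.6 CPM. Birc5 had 1.07 (SE 0.40) between the PE+/− sexes and −0.89 (SE 0.50) with genotype in females, and Aurkb 0.82 (SE 1.12) and −0.83 (SE 1.17).

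Of the 8 kinetochore and spindle checkpoint genes, 5 at most were tested in any comparison. Cenpa, the histone H3 variant that marks centromeres, was at 2.68, 3.89, 2.99 and 5.36 CPM in PE+/− males, 3.69, 3.44, 4.63 and 2.45 in PE−/− males, 4.92, 5.65, 4.35 and 2.13 in the PE+/− females, with 2.72, 3.71 and 2.67 in PE−/− females. Its groups overlapped throughout, with log2 fold changes of −0.07 (SE 0.30) and −0.50 (SE 0.36) with genotype in males and females. Bub1b, the checkpoint protein BubR1, was higher in each PE+/− female (2.13 to 2.97 CPM) than in each PE+/− male (0 to 0.969 CPM), and the log2 fold change was 1.94 (SE 0.74) with an edgeR adjusted p = 0.296. Cenpf, a large kinetochore protein of G2 and M phase, had 1.49 (SE 0.79) in that comparison. Ndc80, of the microtubule-binding complex, had −0.61 (SE 0.65) between the PE+/− sexes and −0.81 (SE 0.60) with genotype in males. Nuf2, its partner, had 0.20 (SE 0.56) in the male genotype comparison.

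Racgap1 (chromosome 15, 99620496 to 99651656), a GTPase-activating protein of the central spindle, had a low level in a pair of libraries only. It was at 86.1, 111, 116 and 84.7 CPM in PE+/− males, 85.0, 84.0, 54.8 and 82.9 in PE−/− males, 80.6, 3.22, 5.71 and 68.7 in the PE+/− females, with 93.6, 65.5 and 67.0 in PE−/− females. PE+/− females 2 and 3, with 77 and 105 counts, lay far below the other 13 libraries, which had 54.8 CPM or more. For the PE+/− females the mean was therefore 39.5 ± 40.8 CPM (SD, n = 4), and the log2 fold change between the PE+/− sexes was −1.32 (SE 0.91, edgeR adjusted p = 0.592). In males the genotype value was −0.38 (SE 0.18, edgeR adjusted p = 0.857). Of the other spindle genes, Tpx2, an activator of Aurora A, was at 0.58 (SE 0.41) in males and 0.10 (SE 0.54) in females, and Prc1, a bundler of central spindle microtubules, at 0.31 (SE 0.39) and −0.13 (SE 0.52). The spindle motors Kif11 and Kif20a were at 0.26 (SE 0.45) and 0.63 (SE 0.68) in males and 0.14 (SE 0.49) and 0.18 (SE 0.58) in females. Kif20a, at 0.141 to 2.39 CPM, shares 1271 bp of exon with Cdc23 on the opposite strand, which was at 7.04 to 27.3 CPM, and Prc1 shares 911 bp with Rccd1 (0 to 2.32 CPM), so that reads of each pair cannot be told apart. Hmmr, a microtubule-binding protein, was higher in each PE+/− female (1.14 to 2.38 CPM) than in each PE+/− male (0 to 0.775 CPM), a difference of 1.70 (SE 0.78, edgeR adjusted p = 0.402). These males had 11, 16, 0 and 12 counts of Hmmr, at or under the floor of 12 counts in all but replicate 2.

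Of the 4 anaphase and mitotic exit genes, Pttg1 (chromosome 11, 43420250 to 43426251, minus strand) encodes securin, the inhibitor of separase, and was first cloned from pituitary tumour cells. It was at 4.79, 3.62, 4.08 and 4.59 CPM in PE+/− males and 3.69, 4.48, 4.73 and 5.23 CPM in PE−/− males. In females it was at 2.89, 10.8, 3.05 and 4.51 CPM with PE+/− and 10.6, 13.9 and 12.2 CPM with PE−/−. All PE−/− females lay above all males, by at least the gap from 5.23 to 10.6 CPM, while PE+/− female 2 lay among the PE−/− females. Between the PE−/− sexes the log2 fold change was 1.44 (SE 0.18, 2.70-fold), with an edgeR adjusted p = 0.117 over all genes. That p ran from 2.73e-07 (DESeq2) to 1 (one fit on all 15 libraries) over the alternatives. With genotype in females it was 1.19 (SE 0.47, edgeR adjusted p = 0.272), and 1.80 without PE+/− female 2 (edgeR adjusted p = 0.0684). Over the alternatives the lowest adjusted p was 0.0684 and the highest 0.49. In males the genotype value was 0.09 (SE 0.19). The interaction was 1.11 (SE 0.50, edgeR adjusted p = 0.48), and without PE+/− female 2 it was 1.72 and past the threshold (edgeR adjusted p = 0.0492, against at most 0.623 over the alternatives).

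Cdca3 (chromosome 6, 124829547 to 124833701), a factor that triggers entry into mitosis and is destroyed at its exit, had genotype values of opposite sign in the sexes. Its libraries were 1.62, 3.57, 2.5 and 1.61 CPM in PE+/− males and 3.08, 4.13, 4.73 and 7.34 CPM in PE−/− males. They were 10.2, 6.36, 5.17 and 3.54 CPM in the PE+/− females, with 2.47, 4.11 and 2.23 CPM in PE−/− females. Only PE+/− male 2 reached into the range of the PE−/− males, and only PE−/− female 2 into that of the PE+/− females. The genotype log2 fold change in males was 1.04 (SE 0.36) and that in females −1.10 (SE 0.42), with edgeR adjusted p = 0.671 and 0.253, and between the PE+/− sexes it was 1.44 (SE 0.41, edgeR adjusted p = 0.173). The interaction, which tests whether these 2 changes differ and not their signs, was −2.13 (SE 0.57) with an edgeR adjusted p = 0.18 and a range over the alternatives from 0.0247 (DESeq2) to 0.408. Without PE+/− female 1 and PE−/− male 4 the interaction was −1.52 (edgeR adjusted p = 0.313). Cdc20, the activator of the anaphase-promoting complex, and Ube2c, its ubiquitin-conjugating enzyme, had −0.01 (SE 0.75) and −0.28 (SE 0.69) with genotype in males and −0.18 (SE 0.44) and −0.97 (SE 0.98) in females. Cdc20 shares 53 bp of exon with Elovl1 on the opposite strand, at 2.99 to 46.9 CPM.

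**Figure D5:**
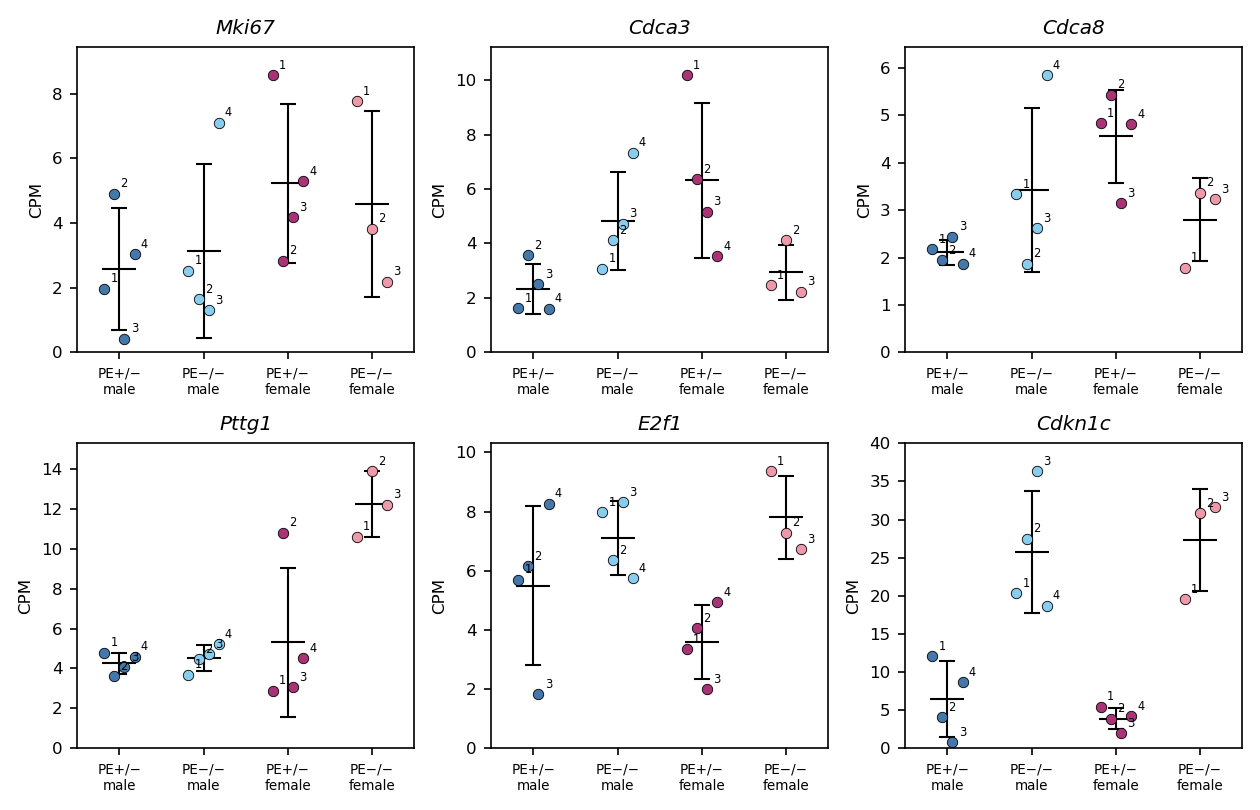
Level in CPM of Mki67, Cdca3, Cdca8, Pttg1, E2f1 and the CDK inhibitor gene Cdkn1c, with 1 point per library numbered by replicate, and the mean and SD of each group. Pttg1 is at 10.6 to 13.9 CPM in PE−/− females and at 5.23 CPM or less in all males, the higher group mean of Cdca3 is that of PE−/− in males and that of PE+/− in females, and Cdkn1c is at 18.7 CPM or more in each PE−/− library and at 12.1 CPM or less in each PE+/− library.

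Of the replication genes, Pcna was at 32.3, 55.7, 43.4 and 51.2 CPM in PE+/− males, 50.1, 44.1, 50.6 and 52.8 in PE−/− males, 52.7, 45.7, 46.3 and 46.2 in the PE+/− females, with 54.1, 50.6 and 49.0 in PE−/− females. PE+/− male 1 was the lowest and the groups overlapped. The genotype log2 fold change of Pcna was 0.11 (SE 0.18) in males and 0.09 (SE 0.12) in females. Its named pseudogenes Pcna-ps1 and Pcna-ps2 could share reads. Over the 9 replication members the genotype values ran from −0.16 to 0.71 in males and from −0.31 to 0.47 in females, with Rrm2, the small subunit of ribonucleotide reductase, the largest in males (0.71, SE 0.45).

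Among the 6 subunits of the MCM helicase, which unwinds the DNA at replication forks, Mcm6 had similar genotype values in the sexes. It was at 12.7, 9.32, 9.51 and 9.69 CPM in PE+/− males and 15, 11.4, 11.7 and 15.4 CPM in PE−/− males, and at 10.2, 8.41, 9.03 and 8.29 CPM in the PE+/− females, with 15, 10.7 and 11.9 CPM in PE−/− females. All PE−/− females lay above all PE+/− females, and in males PE+/− male 1 alone reached into the PE−/− range. The log2 fold change in males was 0.37 (SE 0.17) and that in females 0.47 (SE 0.18), with edgeR adjusted p = 0.829 and 0.252. Mcm4 had 0.23 (SE 0.17) and 0.41 (SE 0.16), and its PE−/− females (28.1 to 30.4 CPM) also lay above the PE+/− females (18.9 to 25.1 CPM).

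Mcm5 was at 2.54, 4.64, 3.72 and 2.45 CPM in PE+/− males, 5.10, 5.01, 3.84 and 5.74 in PE−/− males, 4.45, 3.39, 2.45 and 3.05 in the PE+/− females, with 2.72, 3.86 and 2.49 in PE−/− females. PE−/− males had the highest mean and overlapped each group compared with them. Its log2 fold change was 0.56 (SE 0.26, edgeR adjusted p = 0.837) with genotype in males and −0.69 (SE 0.24, edgeR adjusted p = 0.997) between the PE−/− sexes. Mcm7 was at 20.6, 22.3, 27.4 and 17.8 CPM in PE+/− males, 27.0, 24.0, 23.3 and 26.2 in PE−/− males, 26.1, 27.4, 23.8 and 27.1 in the PE+/− females, with 21.3, 20 and 22.2 in PE−/− females. All PE−/− females lay below all PE+/− females and all PE−/− males. The values were −0.31 (SE 0.13, edgeR adjusted p = 0.299) with genotype in females and −0.49 (SE 0.19, edgeR adjusted p = 0.395) for the interaction. Mcm7 shares 321 bp of exon with Ap4m1 on the opposite strand, at 41.3 to 62.0 CPM.

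Of the G1/S regulators, E2f1 (chromosome 2, 154559407 to 154569892, minus strand), the E2F activator of the replication genes, had the smallest p of all members in the female genotype comparison. It was at 5.70, 6.16, 1.83 and 8.27 CPM in PE+/− males, 7.98, 6.35, 8.33 and 5.74 in PE−/− males, 3.36, 4.06, 2.01 and 4.94 in the PE+/− females, with 9.38, 7.29 and 6.74 in PE−/− females. All PE−/− females lay above all PE+/− females, while the male groups overlapped. In females the means were 3.59 ± 1.24 (SD, n = 4) and 7.80 ± 1.39 CPM (SD, n = 3), a log2 fold change of 1.11 (SE 0.32, 2.16-fold) with an edgeR adjusted p = 0.148. Over the alternatives that p ran from 0.0346 (DESeq2) to 0.346. In males it was 0.37 (SE 0.40), and the interaction of 0.74 (SE 0.54, edgeR adjusted p = 0.724) did not show the sexes to differ.

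Cyclin E, the partner of CDK2 at the start of S phase, was present mainly as Ccne2. Ccne2 was at 20.1, 23.0, 14.9 and 18.8 CPM in PE+/− males, 16.7, 20.7, 23.8 and 21.5 in PE−/− males, 28.9, 31.6, 38.3 and 17.7 in the PE+/− females, with 22.5, 18.3 and 18.4 in PE−/− females. PE+/− females 1 to 3 lay above all other libraries and PE+/− female 4 in the range of the PE+/− males. The log2 fold change was 0.61 (SE 0.25, edgeR adjusted p = 0.338) between the PE+/− sexes and −0.57 (SE 0.26, edgeR adjusted p = 0.35) with genotype in females. Ccne2 shares 609 bp of exon with Ints8 on the opposite strand, which was at 0.625 CPM or less. Ccne1 had from 0 to 21 counts, at 0.986, 0.464, 0 and 0 CPM in PE+/− males, 0.404, 0.536, 0.234 and 1.19 in PE−/− males, 0.547, 0.502, 0.272 and 0 in the PE+/− females, with 0.432, 0.587 and 0 in PE−/− females. Ccne1 passed the filter in 2 of the 5 comparisons and was called in neither, with −0.76 (SE 1.05, edgeR adjusted p = 0.997) between the PE−/− sexes and an interaction of −0.65 (SE 1.97, edgeR adjusted p = 0.964).

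Genes of the same pathway outside the set were read from 5 further lists. Of the 7 CDK inhibitors 6 were tested, and 1, Cdkn1c, was past the threshold in any comparison. That was with genotype in females, where 1.05% of all genes were called. Cdkn1c encodes p57, an inhibitor of the G1 kinases. It was at 12.1, 4.13, 0.853 and 8.66 CPM in PE+/− males and 20.4, 27.5, 36.4 and 18.7 CPM in PE−/− males, and at 5.47, 3.89, 2.01 and 4.27 CPM in the PE+/− females, with 19.6, 30.8 and 31.6 CPM in PE−/− females. Each PE−/− library lay above each PE+/− library of either sex. Within females 9.65% of all genes were higher in every PE−/− than in every PE+/− library, and within males 2.54%. Cdkn1c rose in females by 2.80 on the log2 scale (SE 0.35, edgeR adjusted p = 0.0227), and in males the value was 2.0 (SE 0.65, edgeR adjusted p = 0.598). The interaction of 0.81 (SE 0.80, edgeR adjusted p = 0.829) did not show the sexes to differ. Cdkn2c, which encodes p18, was lower in each PE−/− female than in each PE+/− female, with −0.80 (SE 0.24, edgeR adjusted p = 0.159). Of all genes 8.93% were separated in that way.

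The wider list of 50 mitosis genes had 0 called in any comparison by edgeR's quasi-likelihood test. At an unadjusted p under 0.05 there were 1 to 6 of them, where 3.37% to 16.1% of all genes had such a p. In females with genotype there were 3 of 41 (16.1% of all genes), and for the interaction 6 of 47 (10.1%). With genotype the median was 0.35 over 37 tested genes in males and −0.23 over 41 in females, and between the PE+/− sexes it was 0.51 over 36, with 6 genes at an unadjusted p under 0.05, all higher in females, where 13.5% of all genes had such a p (7.29% higher). Spc25, of the kinetochore complex of Ndc80, was higher in each PE+/− female than in each PE+/− male, with 1.51 (SE 0.36, edgeR adjusted p = 0.118). Of all genes 5.32% were separated in that way. Pimreg, a mitotic regulator, had 0.87 (SE 0.26, edgeR adjusted p = 0.197) between the PE+/− sexes. Of the 28 other replication genes 0 were called, with medians of 0.21 in males and −0.08 in females with genotype. At an unadjusted p under 0.05 there was 1 (Pola1, of DNA polymerase alpha) of the 23 tested in males, with 0.55 (SE 0.19, edgeR adjusted p = 0.646), where 6.14% of all genes had such a p, and 0 of the 25 tested in females (16.1% of all genes).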

How the data were processed

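Whole-pituitary RNA was sequenced as 15 libraries made with a low-input kit. The authors deposited 1 table of estimated counts per gene, not normalized for depth or length, with replicates kept apart. The study's methods name cutadapt, STAR on mm10 and featureCounts, while the row names are those of an assembled annotation, so the counting step is uncertain. Counts were tested as deposited. Genes passed filterByExpr of edgeR 4.0.16 (R 4.3.3; minimum count 10, minimum total 15), and the quasi-likelihood test with TMM scaling, two-sided, with Benjamini-Hochberg adjustment over all genes tested and a threshold of 0.05, was fitted within the libraries of each comparison and over all 15 for the interaction. The SE of a log2 fold change was derived as its absolute value divided by the square root of the quasi-likelihood F statistic. CPM used TMM-scaled totals, and levels of different genes were compared per kb of exon (GENCODE, mm10). Alternatives were DESeq2 1.42.0, the likelihood ratio test, other scalings, filters and sample sets, the replicate number as a block, and each library left out.

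The members and gene lists were chosen with earlier results of these data known. Values in every library are given for Mki67, Top2a, Pttg1, Pcna, Cdk1, E2f1 and Ccne1, for the member of each role with the highest mean CPM, not scaled by length, and for the 3 members with the smallest p in each comparison. Of the 5 pathway lists outside the set, genes past the threshold and the 2 with the smallest p per list are named, and of the cell type marker lists, which were used as sums, the genes past the threshold. Correlations of same-numbered deviations lay between −0.136 and 0.154. They were not compared with those of differently numbered libraries, so whether replicate numbers pair the libraries was not tested.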

Additional observations from a re-analysis of the deposited data

Results flagged for a closer look

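In groups of 4 libraries, 9 of 123 member and group pairs held 1 library far from the others, by the gap to its nearest neighbour over the whole range (Dixon's test at the 95% level). Chance flags about 1 in 20 such groups. Ccna2 was at 16 CPM in PE+/− female 2, against 10.3 to 10.7 CPM in the other PE+/− females. Pcna was at 52.7 CPM in PE+/− female 1, against 45.7 to 46.3 CPM.

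In PE+/− males, Ccnb2 was at 0 CPM in replicate 3 (0.563 to 0.649 CPM in the others), and so was Hmmr (0.742 to 0.775 CPM). Mcm6 was at 12.7 CPM in replicate 1, against 9.32 to 9.69 CPM. In replicate 2, Mcm2 was at 36.6 CPM (23.5 to 25.2 CPM in the others) and Rrm2 at 4.96 CPM (2.56 to 2.75 CPM).

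In PE−/− males, Ccnb2 was at 2.05 CPM in replicate 4, against 0 to 0.344 CPM, and Racgap1 at 54.8 CPM in replicate 3, against 82.9 to 85.0 CPM. No member had an interaction of genotype and sex past the threshold with all 15 libraries.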

How the results depend on the processing

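Counts over all genes depended on the test, on the replicate block and on the libraries fitted. DESeq2 called 206 genes with genotype in males, 1431 with genotype in females, 902 and 41 between the PE+/− and the PE−/− sexes, and 394 for the interaction. The likelihood ratio test called 138, 710, 422, 33 and 202. Over the members, DESeq2 called 0, 1, 3, 1 and 1, and the likelihood ratio test 0, 0, 1, 1 and 1. With 1 fit on all 15 libraries the first 3 counts were 37, 714 and 421, and without a low-count filter the female genotype count was 123 and the PE+/− sex count 66. The replicate block gave 0, 1, 0, 0 and 11 calls over all genes, 0 of them members, and moved the Pcna interaction from −0.01 to 0.00. With counts divided by 4 the members tested were 23, 29, 24, 27 and 31, and their medians 0.19, −0.26, 0.30, −0.08 and −0.47. Leaving out each library in turn gave 11 to 35, 29 to 244, 34 to 113, 7 to 27 and 7 to 71 calls, and member medians of 0.08 to 0.43, −0.67 to 0.00, 0.15 to 0.77, −0.23 to 0.11 and −0.86 to −0.31. The members called stayed at 0, apart from the interaction (0 to 1, with Pttg1 past the threshold without PE+/− female 2). Single values changed sign in some of these fits. With genotype in males, Mki67 ran from −0.51 to 0.79, Top2a from −0.24 to 0.52 and Pcna from −0.02 to 0.22, and in females Mki67 from −0.79 to 0.15 and Top2a from −0.76 to 0.05. Between the PE+/− sexes Pttg1 ran from −0.28 to 0.52 and Pcna from −0.06 to 0.18. Between the PE−/− sexes Mki67 ran from −0.04 to 1.33, Top2a from −0.12 to 0.69, Cdk1 from −1.96 to 0.20 and E2f1 from −0.01 to 0.23. For the interaction Mki67 ran from −1.05 to 0.32, Top2a from −0.91 to 0.02 and Pcna from −0.11 to 0.13, and Ccne1 was as low as −1.76. Without both PE+/− female 1 and PE−/− male 4, chosen after seeing the data, the interaction median was 0.02, with Mki67 at 0.68, Top2a at 0.23, Pcna at 0.08 and Ccne1 at 0.26. The cause was not tested. The low-count filter left 4 of the 45 members untested in every comparison, and the part of depth in this was not tested.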

Other observations

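Of the 16 G1 cyclins, kinases and pocket proteins 15 were tested, and edgeR's quasi-likelihood test called 0 in any comparison, with 0 to 3 at an unadjusted p under 0.05. In females with genotype there were 3 of 15, where 16.1% of all genes had such a p, namely Cdk4 (log2 fold change −0.31, SE 0.13), Cdk6 (0.44, SE 0.18) and E2f3 (0.74, SE 0.31). E2f3, an E2F activator, had an interaction of 0.92 (SE 0.37, edgeR adjusted p = 0.407). Ccnd3, which encodes cyclin D3, had 0.31 (SE 0.12) between the PE−/− sexes. Of the 10 genes of the MuvB complex and its partners 9 were tested, with 0 called and 0 or 1 at an unadjusted p under 0.05, where 3.37% to 16.1% of all genes had such a p over the comparisons. Lin37, a MuvB subunit, had an interaction of −0.76 (SE 0.33, edgeR adjusted p = 0.46), and Tfdp1, the partner of the E2F factors, a genotype value of −0.27 (SE 0.15) in males. Tk1, a thymidine kinase of S phase outside the set, had −1.12 (SE 0.48, edgeR adjusted p = 0.997) between the PE−/− sexes.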
